A study of Mus musculus and Homo sapiens with 18 samples.

Results

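The genes described here are 10 genes of fibroblast growth factor (FGF) signalling: the receptors Fgfr1, Fgfr2 and Fgfr3, and the feedback genes Spry1, Spry2, Spry4, Spred1, Dusp6, Etv4 and Etv5. They were chosen by name from textbook knowledge of the pathway, because FGF drives differentiation of lens fibres and basic FGF was part of the medium of the cultured lens progenitor-like cells. Earlier results of these data were known when the 10 genes were chosen. The 3 count tables together hold 98517 gene symbols (read in upper case), and all 10 genes were present, and passed the filter on low counts, in each table. Human genes are written in upper case.

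FGFs bind receptor tyrosine kinases at the cell surface together with heparan sulfate chains, and the occupied receptor passes its signal through adaptor proteins and Ras to the kinase ERK. ERK signalling in turn raises transcripts that restrain it. Sprouty and Spred proteins act on Ras and Raf, Dusp6 removes phosphate from ERK, and Etv4 and Etv5 are ETS transcription factors induced by FGF. In the lens, FGF from the vitreous side promotes elongation of epithelial cells into fibres, and Fgfr1, Fgfr2 and Fgfr3 act together in this step.

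The study deleted Qk (QKI in human), which encodes the RNA-binding protein Quaking, in 3 systems with 3 libraries in each group. Lenses came from tamoxifen-injected mice at P17-19 (postnatal days 17 to 19). Ctrl mice were given as Nestin-CreERT2; QkL/+ and Qk-iCKO mice as Nestin-CreERT2; QkL/L. By these genotypes both groups carried the Cre driver and controls also had 1 floxed allele. For its controls in general the paper also names Nestin-CreERT2; Qk+/+ littermates and QkL/L littermates without Cre. In Nestin-CreERT2 mice the Nestin promoter drives a tamoxifen-dependent Cre recombinase. NLPCs, lens progenitor-like cells made in culture from neural stem cells of newborn Nestin-CreERT2; QkL/L mouse brains, were labelled WT or Qk-/-; the deletion was induced by 4-hydroxytamoxifen, and both received Noggin at 100 ng/mL and then bFGF at 100 ng/mL with BMP4 and BMP7 at 20 ng/mL each. HLE-B3, an immortalised human lens epithelial cell line grown in 20% serum with no FGF named in its medium, was WT or QKI KO, made with a CRISPR-Cas9 lentivirus; whether the knockout cells were a pool or a clone, and whether the libraries of a culture came from separate cultures, was not given in the sources used here. P-values then measure only the spread between these libraries.

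The total counts were 10319320 to 16425331 per lens library, 28154202 to 68243360 per NLPC library and 69190864 to 81384471 per HLE-B3 library. Transcripts of the deleted gene differed in direction between systems. QKI was lower in the knockout HLE-B3 cells (log2 fold change -1.34 ± 0.05 SE), and Qk did not pass the test in the lens (-0.31 ± 0.14, edgeR adjusted p = 0.200). Qk was higher in the NLPC libraries labelled Qk-/- (0.41 ± 0.09, edgeR adjusted p = 0.0270). This RNA direction goes against that label, although transcripts that lack the floxed exon are still counted. At the protein level, the paper reports complete loss of Qki staining in neural stem cells and NLPCs after the deletion was induced. Gene counts do not measure that protein. In the lens, the summed level of 7 leukocyte marker genes was 1.57 to 3.71 CPM (counts scaled to a common library size) in Ctrl and 93.6 to 134 CPM in Qk-iCKO libraries, and all 6 that were tested were higher. The summed level of 8 lens fibre markers was 181489 to 192390 CPM in Ctrl and 98744 to 165721 CPM in Qk-iCKO. Lens epithelium markers summed to 22469 to 32001 CPM in Ctrl and 14685 to 19778 CPM in Qk-iCKO. Such a sum is weighted to the most abundant genes. The median log2 fold change of the 6 epithelium markers was -0.03, and 0 passed an unadjusted p of 0.05 by edgeR. Iris, ciliary and retinal pigment epithelium markers summed to 2.54 to 6.71 and 4.75 to 43.3 CPM. Photoreceptor and neuron markers summed to 2.81 to 285 and 8.89 to 52.5 CPM. No tested gene of the lens epithelium, pigment epithelium or photoreceptor and neuron lists was called, whereas 1 of 7 tested lens fibre markers was called lower. The part of all these cell types in the lens results was not tested. The library of Qk-iCKO lens 1 stood apart, with a TMM scaling factor of 1.48 against 0.888 to 0.962 for the other 5. In NLPCs the same fibre markers summed to 0.793 to 4.2 CPM, so the defining fibre genes were near 0, whereas 7 neural stem cell and astrocyte markers summed to 6563 to 7144 CPM in WT and 4572 to 5237 CPM in Qk-/-. Photoreceptor and neuron markers summed to 1.30 to 3.62 CPM in WT NLPCs and 17.2 to 27.0 CPM in Qk-/- (1 of 3 tested higher). Fibroblast and perivascular markers summed to 68.8 to 78.8 and 30.7 to 35.2 CPM (1 of 4 lower, 3 of 4 above 0). Lens epithelium markers summed to 193 to 195 and 144 to 164 CPM (1 of 4 lower). The part of these cell types in the NLPC results was not tested. In HLE-B3 cells CRYAA was at 0 in every library and the fibre markers summed to 1.72 to 5.68 CPM. Other markers moved with the knockout in these cells: 5 fibroblast and perivascular markers summed to 3782 to 3859 CPM in WT and 1821 to 2146 CPM in QKI KO (3 of 4 tested were lower), 6 lens epithelium markers to 738 to 864 and 1181 to 1332 CPM (2 of 5 higher, 1 lower), and the neural markers to 121 to 132 and 57.6 to 61.8 CPM (2 of 3 lower). In such bulk samples, fewer cells of a type and less RNA per cell cannot be told apart.

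Quaking is known to bind RNA at sequences that hold the letters ACTAAC or ACTAAT, and these letters were looked up, on the transcript strand, in the longest annotated 3′ untranslated region of each gene (GENCODE vM21, GRCm38). They occurred in 6 of the 10 genes and in 32.3% of 20829 mouse genes; the members' regions were longer (median 1508 bases against 976), and per kilobase the rate was 0.431 sites in the members and 0.360 in all genes. The sites of 4 genes are shown because they give the letters that the deleted protein is known for beside genes whose levels are compared below; capitals mark the letters searched.
Fgfr2 (chr7:130163165-130163194, - strand): ttacgatatatgACTAATttggggggaaat
Spry2 (chr14:105892277-105892306, - strand): acaaaatattatACTAATatgttgtacatt
Dusp6 (chr10:99266650-99266679, + strand): gttgcatctggaACTAACtatatatattgt
Etv5 (chr16:22382412-22382441, - strand): ttctccatgctcACTAACtctccttctctg
Fgfr1 held 1 further site and Spry4 held 3. No match was found in the regions of Fgfr3, Spry1, Spred1 and Etv4. A match is a run of letters and no measurement of binding, and no binding to these transcripts was analysed here.

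Promoters of 7 of the 10 genes were matched by symbol in RefSeq (GRCm38.p6): Spred1, Spry1, Fgfr3, Fgfr2, Dusp6, Spry2 and Etv5. Their 250 bases upstream of the start were searched for CCGGAA, the core that many ETS factors bind (both strands), and for TGANTCA, the AP-1 type sequence (which is its own reverse complement). Neither was found in any of these promoters; over all genes, 13.6% of 27025 held CCGGAA and 7.82% held TGANTCA. The sequence upstream of Dusp6, the gene that was higher in all 3 systems, is given below, with that of Spry1, whose direction was split between systems; there are no capitals since neither motif is in them.
Dusp6 (chr10:99262981-99263230, + strand): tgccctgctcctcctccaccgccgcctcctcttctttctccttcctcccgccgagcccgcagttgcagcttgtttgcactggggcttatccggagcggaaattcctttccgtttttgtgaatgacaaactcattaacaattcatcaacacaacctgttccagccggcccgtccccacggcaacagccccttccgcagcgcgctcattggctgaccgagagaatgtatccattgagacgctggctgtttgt
Spry1 (chr3:37639697-37639946, + strand): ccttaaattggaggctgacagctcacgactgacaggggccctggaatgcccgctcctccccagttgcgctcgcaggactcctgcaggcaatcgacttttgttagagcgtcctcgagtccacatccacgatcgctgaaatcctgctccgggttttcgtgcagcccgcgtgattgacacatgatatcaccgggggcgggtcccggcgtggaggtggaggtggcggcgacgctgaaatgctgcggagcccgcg

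Levels are given as CPM after TMM scaling, and comparisons between genes as CPM per kilobase of merged exon. In Ctrl lenses Fgfr3 had the highest level per kilobase of the 10 genes (25.7 ± 1.72, SD, n = 3), above Fgfr2 (10.3 ± 1.33). Etv5, Spry1 and Spry2 followed Fgfr2, and the ranges of neighbours in this order overlapped down to Spry2. Spry4 (0.0987 ± 0.0105) and Etv4 (0.0721 ± 0.0248) were the lowest and overlapped. In WT NLPCs Fgfr3 was again the highest (50.4 ± 2.6), followed by Spry2, Etv5 and Etv4, whose neighbouring ranges overlapped, and Spry4 was the lowest (2.47 ± 0.265). Etv4, at the bottom of the order in Ctrl lenses, was at rank 4 of the 10 genes in WT NLPCs (34.8 ± 3.75). In WT HLE-B3 cells the order was different: DUSP6 (15.3 ± 1.24), SPRY2, ETV5 and SPRED1 formed an overlapping group at the top, and SPRY1 and FGFR2 (0.271 ± 0.0250) were the lowest and overlapped. Human per-kilobase values rest on long merged exons, and systems were sequenced and counted separately, so only the order within a system is compared.

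**Figure D1:**
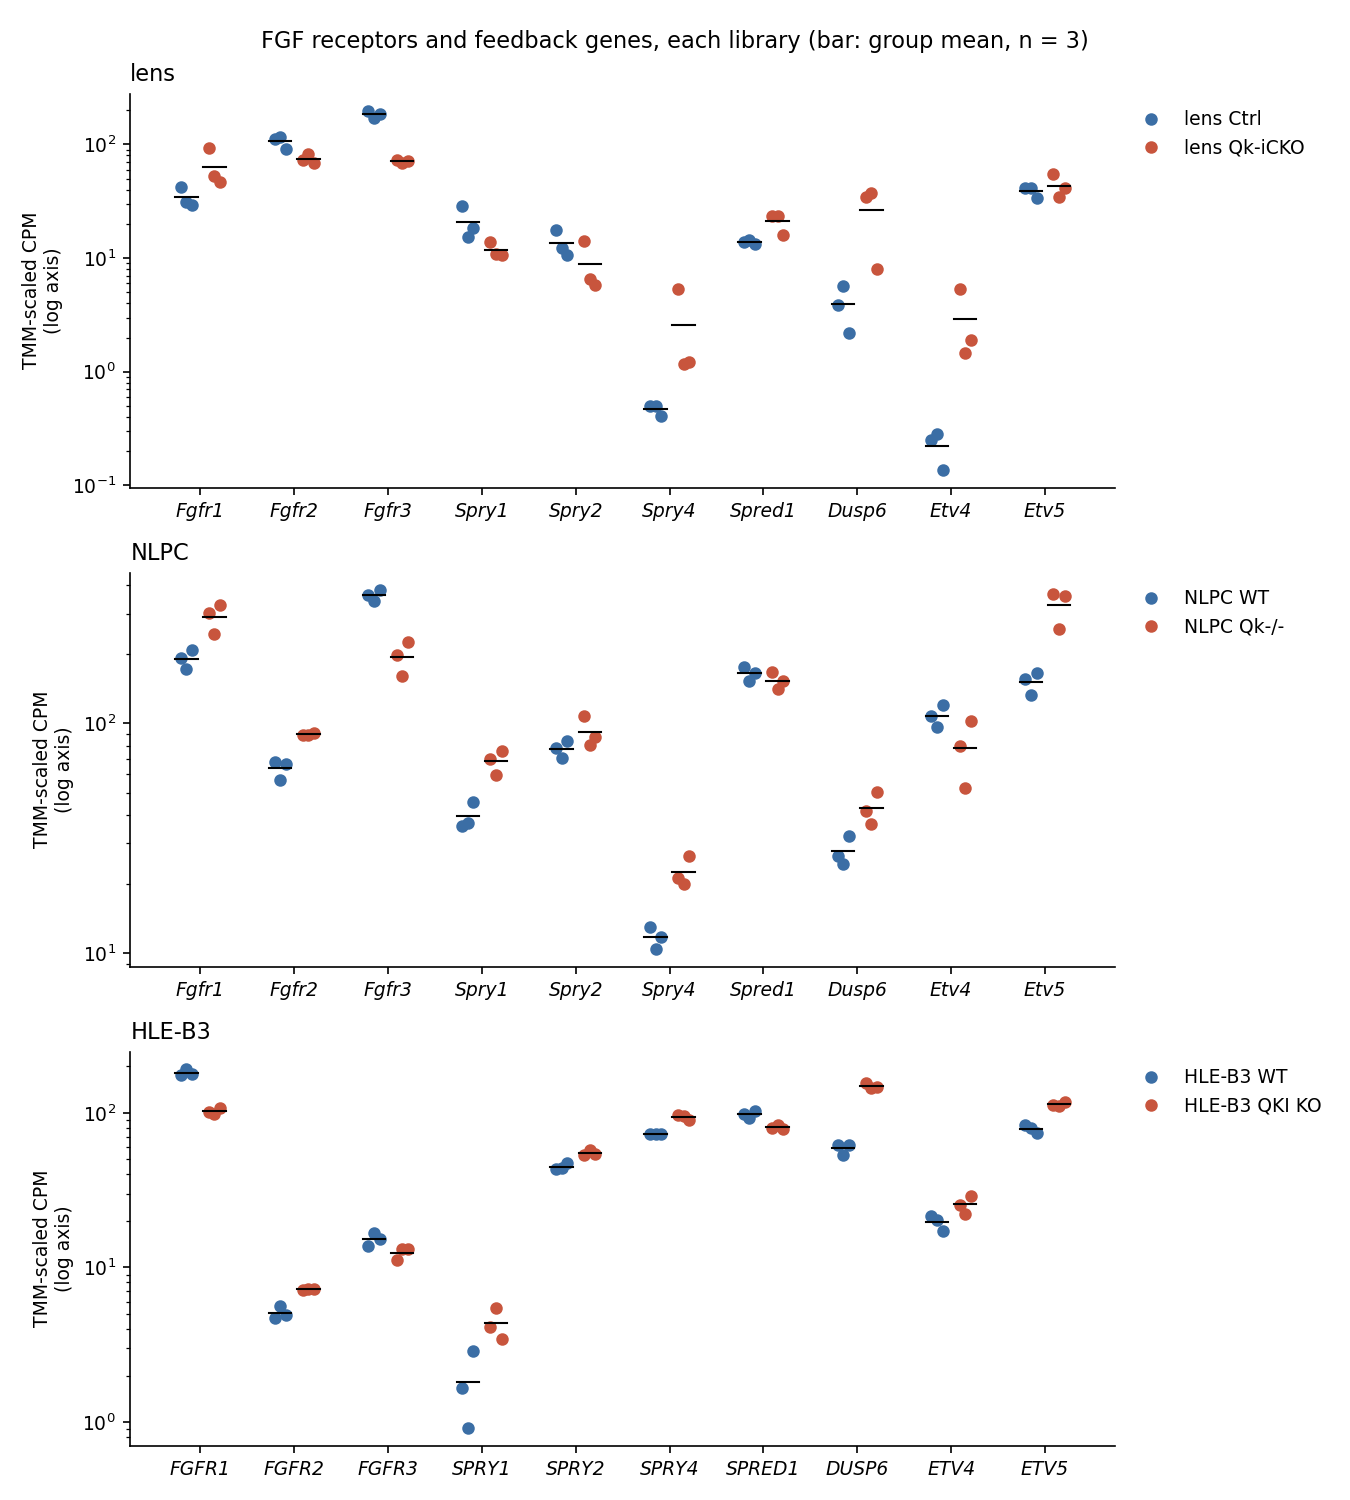
TMM-scaled CPM (log axis) of the 10 genes in every library; points are libraries, bars are group means (n = 3), blue is control and red is deletion. Fgfr3 points of the deletion libraries lie below the controls in all 3 panels and those of Dusp6 lie above them.

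The question of the comparison was whether deletion of Quaking changed the FGF receptors and the transcripts that report and restrain FGF signalling. Of the 10 genes, 3 passed an adjusted p of 0.05 in the lens (12.3% of 12201 genes tested), 7 in NLPCs (10.7% of 20371) and 10 in HLE-B3 cells (33.3% of 19049). At an unadjusted p under 0.05 the counts were 8 (28.7% of all genes tested), 7 (26.4%) and 10 (41.3%). The calls in the lens were Fgfr3, which fell (3.88% of all genes did), and Dusp6 and Etv4, which rose (8.38%). In NLPCs Fgfr3 fell (5.96%) and Fgfr1, Fgfr2, Spry1, Spry4, Dusp6 and Etv5 rose (4.74%). In HLE-B3 cells FGFR1, FGFR3 and SPRED1 fell (16.3%) and the other 7 rose (17%); the part of the fibroblast, epithelial and neural markers that moved in these cells was not tested. With the replicate number as a block, 7 of the 10 genes passed in the lens, where Fgfr1, Spry1, Spry2 and Spry4 were added, and that fit called 16.2% of the same 12201 genes. The pairing of that block comes from these same counts and not from a label, here and wherever the block is given below. The groups did not overlap for 8 genes in the lens (35.3% of all genes tested), 7 in NLPCs (35.2%) and 10 in HLE-B3 cells (44.6%). The median log2 fold change of the 10 genes was 0.39 in the lens, 0.55 in NLPCs and 0.37 in HLE-B3 cells, beside 0.01, 0.04 and -0.02 over all genes tested. Fgfr3 was below 0 and Dusp6 above 0 with a call in each of the 3 systems; Spry4 and Etv5 were also above 0 in all 3, with calls in NLPCs and HLE-B3 cells, and the other 6 genes differed in direction between systems. The log2 fold change was above 0 for 6 of the 10 genes in the lens (50.7% of all genes tested), 7 in NLPCs (53.2%) and 7 in HLE-B3 cells (48.2%).

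**Figure D2:**
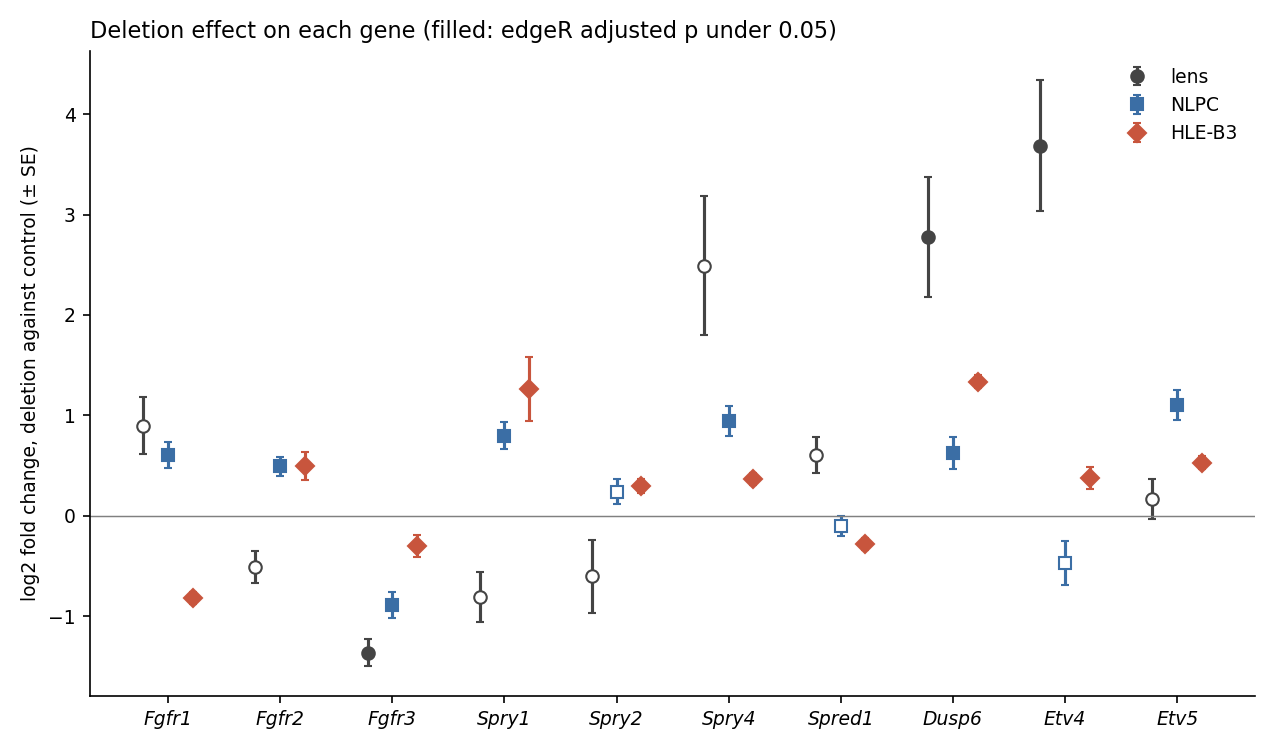
Log2 fold change of deletion against control with its standard error from edgeR, for each gene in the lens (circles), NLPCs (squares) and HLE-B3 cells (diamonds); filled symbols have an adjusted p under 0.05. Fgfr3 is below 0 and Dusp6 above 0 in each system, and the largest values are those of Etv4 (3.69) and Dusp6 (2.78) in the lens.

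Fgfr3 (chr5:33721674-33737068, + strand, GRCm38), a receptor of lens fibres and of astrocyte precursors, was lower after deletion in all 3 systems. Its level was 195, 171 and 185 CPM in Ctrl lenses and 73.1, 69.3 and 72.1 CPM in Qk-iCKO lenses. The deletion lenses were close to each other and all far below the controls, a 2.57-fold decrease (log2 fold change -1.36 ± 0.14 SE, edgeR adjusted p = 0.00146) that kept its call with each library left out in turn. In NLPCs Fgfr3 fell from 361, 342 and 379 CPM in WT to 199, 160 and 226 CPM in Qk-/-, a 1.85-fold decrease (-0.89 ± 0.13, edgeR adjusted p = 0.00469). Again no library of one group reached the other. In HLE-B3 cells the difference was small, 13.9, 16.8 and 15.2 CPM in WT against 11.2, 13.1 and 13.1 CPM in QKI KO (-0.30 ± 0.11, edgeR adjusted p = 0.0474), and the call was lost in 5 of 6 fits without 1 library (adjusted p up to 0.216) and with DESeq2 (adjusted p = 0.0590). The summed lens fibre markers (lens; 1 of 7 tested was lower by the edgeR test) and the summed neural stem cell and astrocyte markers (NLPCs; 3 of 7 lower and 1 higher) were lower in the same deletion libraries; their part in the Fgfr3 result was not tested.

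Fgfr1 (chr8:25513654-25575718, + strand) moved the other way from Fgfr3 in the mouse systems. Lens libraries held 42.4, 31.2 and 29.6 CPM in Ctrl and 92.3, 52.8 and 46.6 CPM in Qk-iCKO, with lens 1 the highest of the deletion group. The groups did not overlap, yet the log2 fold change of 0.90 ± 0.28 missed the threshold (edgeR adjusted p = 0.0856); with the replicate number as a block it passed (0.85, edgeR adjusted p = 0.0132), and without Qk-iCKO lens 1 it was 0.53. In NLPCs Fgfr1 rose from 193, 172 and 209 to 304, 245 and 326 CPM (0.61 ± 0.13, edgeR adjusted p = 0.0215). Every Qk-/- library was above every WT library, but the call was lost in 5 of 6 fits without 1 library (adjusted p up to 0.123). In HLE-B3 cells, where FGFR1 was the most abundant of the 3 receptors, it fell from 175, 191 and 178 to 102, 98.7 and 108 CPM, a 1.76-fold decrease (-0.82 ± 0.06, edgeR adjusted p = 2.39e-08). The 50 tested genes nearest to FGFR1 on its chromosome had a median log2 fold change of -0.54 in these cells, and 17 of them were lower than FGFR1 itself; the part of that regional shift was not tested.

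Fgfr2 (chr7:130162451-133123350, - strand) is an essential receptor of early lens development. This annotated span holds other genes and reaches far upstream of the Fgfr2 promoter searched above. The highest of them in Ctrl lenses were Tacc2 (230 CPM), Htra1 (209 CPM) and Oat (118 CPM), beside 107 CPM for Fgfr2. Sharing of reads with these genes was not tested, and the strand setting of the counting was not given. The length used for Fgfr2, and so its receptor share, rests on this annotation. Fgfr2 stood at 112, 117 and 90.9 CPM in Ctrl lenses and at 73.1, 83.0 and 68.2 CPM in Qk-iCKO lenses, without overlap but short of the threshold (-0.51 ± 0.16, edgeR adjusted p = 0.0815). In NLPCs it rose from 67.8, 56.8 and 66.7 to 89.4, 89.1 and 90.8 CPM (0.49 ± 0.10, edgeR adjusted p = 0.0166), a call that was lost in 5 of 6 fits without 1 library. In HLE-B3 cells the low FGFR2 level rose from 4.74, 5.63 and 4.93 to 7.19, 7.23 and 7.22 CPM (0.50 ± 0.14, edgeR adjusted p = 0.0107). The opposite directions in the mouse systems were larger than the spread between libraries: the deletion effect differed by 1.10 ± 0.17 on the log2 scale (NLPC minus lens, edgeR adjusted p = 0.00245).

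The share of each receptor in the summed per-kilobase level of Fgfr1, Fgfr2 and Fgfr3 does not depend on library scaling. Fgfr3 made up 64.3%, 62.3% and 68.7% of the receptor total in Ctrl lenses and 38.3%, 42.0% and 47.1% in Qk-iCKO lenses. Its mean share was thus 65.1% ± 3.28 (SD, n = 3) against 42.5% ± 4.39, a decrease in all 3 lenses beyond the controls' range. Fgfr1 took up most of the difference, with 8.77% ± 1.18 in Ctrl and 26.8% ± 7.20 in Qk-iCKO. In NLPCs Fgfr3 was 66.4% ± 1.01 in WT and 41.5% ± 1.46 in Qk-/-, and Fgfr1 was 25.5% ± 0.819 and 45.1% ± 0.670. In HLE-B3 cells FGFR1 went from 75.5% ± 0.953 to 66.9% ± 1.87, FGFR2 from 1.94% ± 0.0660 to 4.30% ± 0.169, and FGFR3 from 22.6% ± 0.903 to 28.8% ± 1.91, so that the share of FGFR3 was higher although its CPM was lower. These HLE-B3 shares divide by merged exon lengths of 17201 (FGFR1), 18813 (FGFR2) and 4848 (FGFR3) bases, so their size rests on the annotation. Before that division the WT means were 181 CPM for FGFR1 and 15.3 CPM for FGFR3. The FGFR3 share difference of 6.21 percentage points was 2.61 without the length correction, an alternative chosen after seeing the data. An exact permutation test (two-sided) of each share gave p = 0.1, the smallest value that 3 against 3 libraries allow, except for Fgfr2 in the lens (exact p = 0.2). The 9 shares are not independent, since they add up within a library, and no adjustment makes such a p pass.

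**Figure D3:**
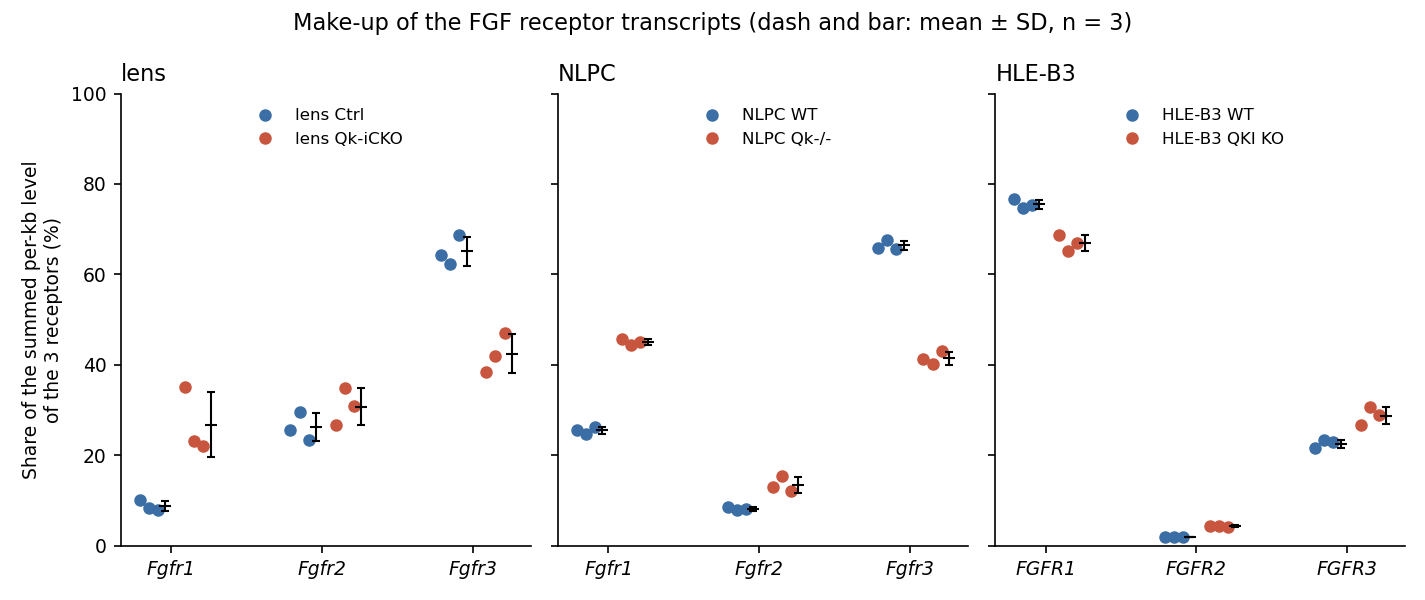
Share (%) of each FGF receptor in the summed CPM per kilobase of the 3 receptors, per library; blue is control, red is deletion, and the black dash with its bar is the mean ± SD (n = 3). In the lens and NLPCs the Fgfr3 share is lower and the Fgfr1 share higher in every deletion library; in HLE-B3 cells the FGFR1 share is lower.

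The Sprouty genes did not move together. Spry1 (chr3:37639947-37644598, + strand), an inhibitor of receptor tyrosine kinase signalling, was 28.6, 15.5 and 18.4 CPM in Ctrl and 13.9, 10.9 and 10.6 CPM in Qk-iCKO lenses. The groups were apart but the fold change of -0.81 ± 0.25 missed the threshold (edgeR adjusted p = 0.0788); it passed with the replicate block (-0.79, edgeR adjusted p = 0.0194). NLPCs showed the reverse, a rise from 35.7, 36.8 and 45.6 to 70.1, 59.8 and 75.6 CPM (0.80 ± 0.13, edgeR adjusted p = 0.00899). The call was lost without WT 1, WT 2 or Qk-/- 1 (adjusted p = 0.0797, 0.0658 and 0.0523). The difference between the systems was 1.70 ± 0.29 (NLPC minus lens, edgeR adjusted p = 0.00386). In HLE-B3 cells SPRY1 was low and rose from 1.65, 0.918 and 2.88 to 4.15, 5.50 and 3.45 CPM (1.26 ± 0.31, edgeR adjusted p = 0.00501), beside a median of 0.40 for its 50 neighbours.

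Spry2 (chr14:105891947-105896819, - strand) is induced by FGF in many tissues. It changed least among the Sprouty genes: 17.8, 12.2 and 10.7 CPM in Ctrl against 14.1, 6.58 and 5.76 CPM in Qk-iCKO lenses overlapped (-0.60 ± 0.36, edgeR adjusted p = 0.320). The highest deletion value was that of Qk-iCKO lens 1, without which the fold change was -1.13 (edgeR adjusted p = 0.0367), and with the replicate block it was -0.69 (edgeR adjusted p = 0.0435). NLPC groups also overlapped, 77.9, 70.9 and 83.8 against 107, 80.7 and 87.1 CPM (0.24 ± 0.13, edgeR adjusted p = 0.261). SPRY2 in HLE-B3 cells rose from a mean of 44.8 ± 2.18 to 55.0 ± 2.49 CPM (SD, n = 3; 0.30 ± 0.07, edgeR adjusted p = 0.00263), while its 50 neighbours had a median of -0.47.

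Spry4 (chromosome 18, 38586247 to 38601415, - strand) was above 0 in all 3 systems. In the lens it was close to the limit of counting, with 6, 7 and 6 reads in Ctrl and 88, 12 and 12 reads in Qk-iCKO libraries (0.497, 0.499 and 0.412 against 5.40, 1.16 and 1.21 CPM). Lens 1 of the deletion group carried most of these reads. The fitted change was 2.49 ± 0.69 (edgeR adjusted p = 0.0575, and 0.0314 with the replicate block), and without Qk-iCKO lens 1 it was 1.32; summed over libraries, 112 reads against 19 gave a rate ratio of 6.56 (exact 95% interval 4.01 to 11.3, counting error only). NLPCs held more Spry4 and it rose from 13.0, 10.4 and 11.8 to 21.2, 20.0 and 26.5 CPM (0.94 ± 0.15, edgeR adjusted p = 0.00723), a call lost without WT 2 or WT 3 (adjusted p = 0.0509 and 0.0654). SPRY4 in HLE-B3 cells rose from 72.9 ± 0.283 to 94.3 ± 3.41 CPM (SD, n = 3; 0.37 ± 0.06, edgeR adjusted p = 0.000106), among neighbours with a median of -0.70.

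Spred1 (chr2:117121374-117182279, + strand), which holds neurofibromin at the membrane to switch Ras off, showed no common direction. Its lens values were 13.8, 14.3 and 13.4 CPM in Ctrl and 23.6, 23.5 and 16.0 CPM in Qk-iCKO (0.60 ± 0.18, edgeR adjusted p = 0.0727). NLPC groups overlapped (165 ± 11.5 against 154 ± 13.1 CPM, SD, n = 3; -0.10 ± 0.10, edgeR adjusted p = 0.542). SPRED1 fell in HLE-B3 cells from 97.7 ± 5.25 to 80.5 ± 2.29 CPM (-0.28 ± 0.06, edgeR adjusted p = 0.00208), a change close to the median of its 50 neighbours (-0.25).

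Dusp6 (chr10:99263231-99267489, + strand), whose phosphatase product inactivates ERK and whose transcript is a common readout of FGF signalling, rose in all 3 systems. Ctrl lenses held 3.89, 5.63 and 2.20 CPM and Qk-iCKO lenses 34.5, 37.6 and 7.98 CPM. Lens 3 of the deletion group was well below the other two and still above every control, and the mean change was 6.85-fold (2.78 ± 0.60, edgeR adjusted p = 0.0244; 0.00100 with the replicate block). The call did not hold in 5 of 6 fits without 1 library (adjusted p up to 0.102, with log2 fold changes of 2.45 to 3.20). In NLPCs Dusp6 rose from 26.6, 24.5 and 32.2 to 41.6, 36.6 and 50.4 CPM (0.63 ± 0.16, edgeR adjusted p = 0.0413), a call lost in 5 of 6 such fits. The smallest adjusted p of the 10 genes was that of DUSP6 in HLE-B3 cells, which rose from 61.9, 53.6 and 61.9 to 156, 145 and 147 CPM, 2.52-fold (1.34 ± 0.07, edgeR adjusted p = 2.66e-10), beside 0.13 for its 50 neighbours. The mouse systems differed by -2.06 ± 0.62 (NLPC minus lens), which missed the threshold (edgeR adjusted p = 0.0615) and passed with the replicate block (-1.94, edgeR adjusted p = 0.00311).

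Etv4 (chr11:101769742-101785371, - strand) and Etv5 (chr16:22381309-22439719, - strand) encode related ETS factors, and they split by system. Etv4 was nearly absent from Ctrl lenses, with 3, 4 and 2 reads, and rose to 87, 15 and 19 reads in Qk-iCKO (0.249, 0.285 and 0.137 against 5.34, 1.45 and 1.92 CPM). As with Spry4, lens 1 was the highest. The fitted change was 3.69 ± 0.65 (edgeR adjusted p = 0.0122), which did not pass without any one of the Ctrl lenses (adjusted p = 0.0506 to 0.0609), and the summed reads, 121 against 9, gave a rate ratio of 15 (exact 95% interval 7.63 to 33.5, counting error only). Of those 121 reads 87 came from Qk-iCKO lens 1, and without it the log2 fold change was 2.87. In NLPCs Etv4 was far from that limit, 108, 96.4 and 120 CPM in WT against 79.5, 52.4 and 102 CPM in Qk-/-, and the groups overlapped (-0.47 ± 0.22, edgeR adjusted p = 0.215). The deletion effect on Etv4 differed between NLPCs and lens by -4.17 ± 0.70 (edgeR adjusted p = 0.00351). ETV4 in HLE-B3 cells rose from 19.7 ± 2.22 to 25.6 ± 3.42 CPM (0.38 ± 0.11, edgeR adjusted p = 0.0111), a call lost without WT 3 or QKI KO 3 (adjusted p = 0.0520 and 0.0818). The median of its 50 neighbours was 0.23, and 30 of them were lower than ETV4. The gene overlaps DHX8 on the other strand, whose mean level was 152 CPM in WT and 170 CPM in QKI KO; the strand setting of the counting was not given, so reads of this pair may be shared.

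Etv5, in contrast, rose in NLPCs from 156, 133 and 166 to 364, 257 and 358 CPM, 2.15-fold (1.11 ± 0.15, edgeR adjusted p = 0.00376), a call kept with each library left out. This made it the highest of the 10 genes per kilobase in Qk-/- NLPCs (79.5 ± 14.7). Lens values overlapped, 41.3, 41.3 and 33.7 against 54.6, 34.5 and 41.3 CPM (0.17 ± 0.20, edgeR adjusted p = 0.623), and the difference between the systems was 1.03 ± 0.25 (NLPC minus lens, edgeR adjusted p = 0.0240), a call lost in 8 of 12 joint fits without 1 library (adjusted p up to 0.0861). ETV5 in HLE-B3 cells rose from 79.0 ± 4.98 to 113.9 ± 3.46 CPM (0.53 ± 0.06, edgeR adjusted p = 5.88e-06).

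The deletion effects in NLPCs and lens were compared directly with an interaction term fitted to all 12 mouse libraries, where 4 of the 10 genes differed (8.53% of 16675 genes tested): Fgfr2, Spry1, Etv4 and Etv5. These differences come from a common scaling and are not exactly the subtraction of the separate fits. System, tissue, sequencing depth and counting table changed together in this contrast and cannot be told apart. With total counts in place of TMM factors the median difference of all genes moved from -0.02 to -0.34, and 1 of the 10 genes, Etv4, was still called. The other 6 genes did not pass, with estimates from -2.06 (Dusp6) to 0.93 (Spry2, ± 0.40); for Fgfr1 the difference was -0.20 ± 0.32 (edgeR adjusted p = 0.775).

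The higher genes of the lens were found in the libraries that also held the leukocyte transcripts. Dusp6, Etv4, Spry4, Fgfr1 and Spred1 had every Qk-iCKO library above every Ctrl library, as did the leukocyte markers. Any gene higher in every Qk-iCKO library shares that order, and 35.3% of all genes tested in the lens had groups that did not overlap, in either direction. Among endothelial markers 2 of 4 were also higher (summed 3.65 to 6.93 CPM in Ctrl and 10.8 to 21.7 CPM in Qk-iCKO). The part of leukocytes and endothelial cells in the lens results was not tested. In NLPCs the summed leukocyte markers were 4.23 to 6.10 CPM in WT and 6.22 to 10.8 CPM in Qk-/- and none of 3 tested passed (0 also at an unadjusted p under 0.05); in HLE-B3 cells C1QA was at 0 in every library, and the list summed to 2.98 to 3.65 CPM in WT and 1.71 to 1.99 CPM in QKI KO, with 1 of 2 tested lower.

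Further genes of the pathway came from 5 lists. Their counts of calls stand beside 12.3% of all genes tested in the lens, 10.7% in NLPCs and 33.3% in HLE-B3 cells. FGF ligands were scarce in the lens, where 1 of 18 in the table passed the filter and edgeR called 0 (0 at an unadjusted p under 0.05, 1 with DESeq2, and 2 with every gene of at least 1 count). In NLPCs 8 were tested and none was called by edgeR (1 at an unadjusted p under 0.05, and 0 with DESeq2). In HLE-B3 cells edgeR called 3 of 6, all higher and 0 lower, and 4 of the 6 were above 0 (5 were called with DESeq2, at an unadjusted p under 0.05, or without QKI KO 1). The 3 were FGF5 from 29.2 ± 3.42 to 125 ± 20.9 CPM (2.10 ± 0.11, edgeR adjusted p = 2.51e-10), FGF2, the ligand that was added to the NLPC medium as bFGF, from 131 ± 13.9 to 238 ± 9.86 CPM (0.86 ± 0.07, edgeR adjusted p = 1.13e-07), and FGF1 from 20.0 ± 0.821 to 25.1 ± 0.716 CPM. Among receptor relatives, Fgfrl1, a receptor-like protein without a kinase domain, was the 1 of 3 tested that edgeR called in NLPCs, just inside the threshold (0.37 ± 0.10, edgeR adjusted p = 0.0492). That call was lost with total counts, with every gene of at least 1 count and in 5 of 6 fits without 1 library (edgeR adjusted p up to 0.212). The single relative tested in the lens and the 2 in HLE-B3 cells were not called.

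Other feedback and ERK output genes showed the lens values of the largest size. There, 4 of 15 tested rose and 1 fell (33.3% called, beside 12.3% of all genes tested), with a median of 1.47. The 4 that rose were Fos (0.344 ± 0.0125 CPM in Ctrl and 20.1 ± 8.55 CPM in Qk-iCKO, log2 fold change 5.83 ± 0.46, edgeR adjusted p = 0.000612) and Egr1 (3.97 ± 0.80), which are immediate early transcription factors that stress and tissue handling also induce, Ier3 (3.18 ± 0.57), and the ERK phosphatase gene Dusp4 (1.75 ± 0.33). With 1 library left out 1 to 7 of the 15 were called, the fewest without Ctrl lens 1, 2 or 3 (1, 2 and 3). Fos kept its call in each of these fits, whereas Egr1, Ier3 and Dusp4 lost theirs in some (edgeR adjusted p up to 0.0873, 0.0642 and 0.0781). In NLPCs 1 of 15 rose and 4 fell (33.3% called, beside 10.7% of all genes tested), with a median of 0.09. Dusp4 rose here too (1.31 ± 0.24), whereas Fos fell from 19.9 ± 1.37 to 8.99 ± 0.760 CPM (-1.14 ± 0.13, edgeR adjusted p = 0.00146). Il17rd, which encodes the FGF antagonist Sef, fell from 46.6 ± 1.23 to 13.6 ± 0.955 CPM (-1.77 ± 0.11, edgeR adjusted p = 0.000242), and Flrt3, which encodes an FGF receptor partner, fell (-0.79 ± 0.15). There 2 to 7 of the 15 were called with 1 library left out, and the calls of Dusp4 and Flrt3 were among those lost. In HLE-B3 cells 4 of 16 rose and 5 fell (56.25% called, beside 33.3% of all genes tested), with a median of -0.06. IL17RD fell in these cells as well (-1.56 ± 0.32, edgeR adjusted p = 0.00121), and CCND1, which encodes cyclin D1 (1.45 ± 0.05), EPHA2 (0.86 ± 0.06) and FOSL1 (0.71 ± 0.07) rose.

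Relay proteins carry the signal between receptor and ERK. None of 20 was called in the lens by edgeR (12.3% of all genes tested were), with values from -0.76 to 0.62 (5 at an unadjusted p under 0.05, and 1 with DESeq2). In NLPCs none rose and 3 of 20 fell (15% called, beside 10.7% of all genes tested). Among them were Nras (-0.68 ± 0.15), which encodes a Ras protein, and Gab1 (-0.46 ± 0.09), which encodes an adaptor. The calls of Nras and Gab1 were lost in some of the fits without 1 library (1 to 6 of the 20 called). The values of the 20 in NLPCs lay between -0.68 and 0.47. In HLE-B3 cells 6 of 20 rose and 3 fell (45% called, beside 33.3% of all genes tested), within -0.38 and 0.47 on the log2 scale. SHC1 rose most (0.47 ± 0.07) and BRAF fell most (-0.38 ± 0.07).

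Heparan sulfate genes, which make and trim the chains that FGF needs to bind its receptor, had 5 of 19 higher and none lower in the lens (median 0.65). That was 26.3% called, beside 12.3% of all genes tested. Sulf2, a sulfatase that removes sulfate groups from the chains, rose from 2.11 ± 0.535 to 14.1 ± 4.21 CPM (2.74 ± 0.29, edgeR adjusted p = 0.00169). The epimerase gene Glce rose from 11.4 ± 1.34 to 32.3 ± 2.93 CPM (1.5 ± 0.15, edgeR adjusted p = 0.00158), and the core protein genes Sdc3 and Sdc4 rose by 1.35 ± 0.32 and 1.08 ± 0.17. With 1 library left out 2 to 6 of the 19 were called, the fewest without Ctrl lens 1, 2 or 3 (2, 3 and 3), and the calls of Sdc3 and Sdc4 were lost in some of these fits (edgeR adjusted p up to 0.129 and 0.0531). In NLPCs 2 of 19 rose, Sdc4 (0.86 ± 0.09) and Glce (0.64 ± 0.10), and 2 fell (21.1% called, beside 10.7% of all genes tested). Those that fell were the core protein gene Gpc1 (-1.03 ± 0.16) and Ugdh (-0.58 ± 0.12), whose enzyme makes a sugar precursor of the chains. With 1 library left out 1 to 6 of the list were called, the fewest without WT 3. In HLE-B3 cells 5 of 16 rose and 4 fell (56.25% called, beside 33.3% of all genes tested). SULF2 fell from 2.13 ± 0.442 to 0.100 ± 0.129 CPM (-4.37 ± 0.64, edgeR adjusted p = 4.83e-05), opposite to the lens, and SULF1 rose (0.74 ± 0.06) together with SDC1 and SDC2 (0.65 each); the difference between the systems was not tested.

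**Figure D4:**
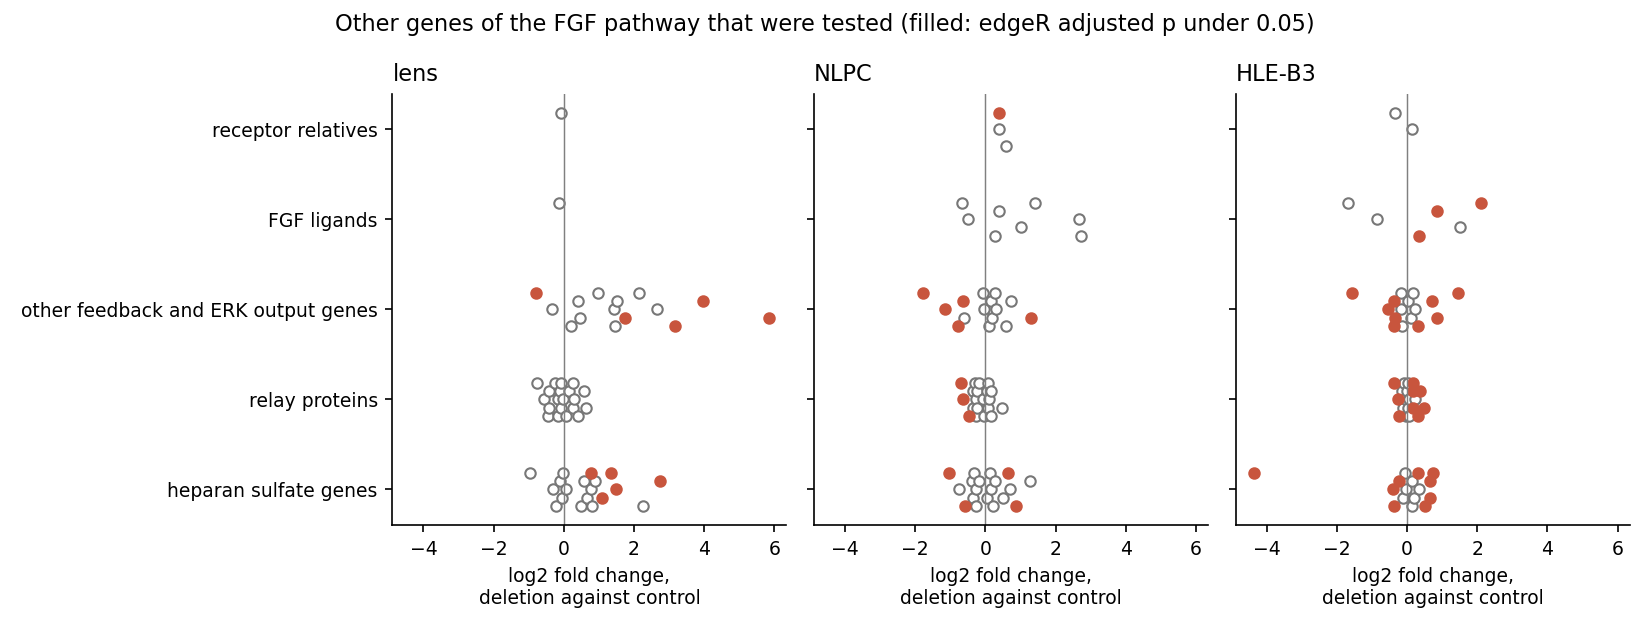
Log2 fold change of deletion against control (x axis) for the tested genes of 5 lists of the FGF pathway (rows) in each system; each point is a gene, offset vertically for visibility, and filled points have an edgeR adjusted p under 0.05. In the lens the largest values are those of the ERK output genes Fos (5.83) and Egr1 (3.97); the relay proteins lie between -0.76 and 0.62 in all 3 systems.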

How the data were processed

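RNA-seq was measured in 18 libraries: 3 systems with control and deletion groups of 3 libraries each, grouped and numbered by the deposited labels. The authors isolated RNA with a column kit, made stranded libraries, mapped reads to mm10 or hg19 (STAR 2.6.1b) and assigned them to genes (HTSeq 0.11.0); the submitters' processing notes also name HISAT2 2.0.4 and featureCounts, with no role given. The deposited tables, 1 per system, hold these counts without normalization.

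The 10 genes, the pathway lists and the marker lists were chosen with earlier results of these data known. Each system was fitted on its own in edgeR 4.0.16 (R 4.3.3, quasi-likelihood F test): filterByExpr (count 10, total 15), TMM scaling, no covariates, and Benjamini-Hochberg adjustment over all genes tested at 0.05. Standard errors are the log2 fold change divided by the root of the F statistic. The difference between NLPC and lens was an interaction term in a joint fit. Printed levels are TMM-scaled CPM. Lengths are merged exons of GENCODE vM21 (GRCm38) or v44lift37 (GRCh37). Receptor shares were compared with exact permutation tests, two-sided (SciPy 1.17.1). Steps were tested on simulated data. Intervals of counts cover counting error only.

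Genes named beside the 10 and Qk are at most the 4 called genes per list and system with the largest absolute log2 fold change. The single result of 1 listed gene is not reported here; the gene counts in its list. Exceptions are CRYAA and C1QA, markers at 0, and genes that overlap a member. DHX8 overlaps ETV4, and Tacc2, Htra1 and Oat lie in the annotated span of Fgfr2. These overlapping genes were chosen after their values were seen. Alternatives were RLE factors, total counts, no filter, at least 10 counts in every library, DESeq2 1.42.0, unadjusted p, factors without crystallins (lens), a replicate block, and each library left out. Same-numbered control and deletion libraries deviated together in the lens (correlations of deviations from the group means 0.233, 0.133 and 0.523) and in NLPCs (0.123, 0.320 and 0.145). Each was over 0.1, so the block is printed where it changes a call. This pairing comes from the data, not from a label. Correlations of libraries with different numbers were not compared with these. Replicate libraries differed by more than sampling noise in every pair.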

Additional observations from a re-analysis of the deposited data

Results flagged for a closer look

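The deletion effect differed between NLPCs and lens by a test of the difference itself for 4 genes (edgeR, joint fit, log2, NLPC minus lens): Fgfr2 by 1.10, Spry1 by 1.70, Etv4 by -4.17 and Etv5 by 1.03. For 5 further pairs of values, every deletion library lay on one side of the controls in one system and on the opposite side in another, and these differences between mouse and human cells were not tested. Fgfr1 had a log2 fold change of 0.90 in the lens and 0.61 in NLPCs, against -0.82 for FGFR1 in HLE-B3 cells. Fgfr2 was at -0.51 in the lens and FGFR2 at 0.50 in HLE-B3 cells. Spry1 was at -0.81 in the lens and SPRY1 at 1.26 in HLE-B3 cells. Spred1 was at 0.60 in the lens and SPRED1 at -0.28 in HLE-B3 cells. Groups of 3 libraries are too small for a test of single outlying libraries.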

How the results depend on the processing

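Over the settings tried, the log2 fold changes of the 10 genes kept their direction in 127 of 128 values in the lens, 120 of 120 in NLPCs and 120 of 120 in HLE-B3 cells. The exception was Etv5 in the lens, which was -0.032 without Qk-iCKO replicate 1 and at most 0.30 without another library; the difference of the effect on Fgfr1 (NLPC minus lens) ranged from -0.41 to 0.17 and changed sign without that same library. The number of the 10 genes called in the lens was 3, and it was 8 at an unadjusted p, 6 with every gene of at least 1 count, 7 with DESeq2, 7 with the replicate block, and 1 to 5 with 1 library left out. In NLPCs it was 7 (2 to 7 with 1 library left out) and in HLE-B3 cells 10 (8 to 10). The number with a different effect in NLPC and lens was 4, against 1 with total counts, 7 with DESeq2, 6 with the replicate block and 3 to 5 with 1 library left out. The cause of these shifts was not tested, except that leaving out a library leaves fewer samples.

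With the replicate block, the call of FGFR3 in HLE-B3 cells was lost (-0.30, edgeR adjusted p = 0.0524), Spry2 and Dusp6 joined the genes that differed between NLPC and lens (1.01 and -1.94, edgeR adjusted p = 0.0209 and 0.00311), and 9 of the 10 genes were called in HLE-B3 cells, whose same-numbered libraries did not deviate together (correlations -0.0495 to 0.0613); the block changed no other call of the 10 genes beyond those given for the lens. FGFR3 also missed with RLE factors (adjusted p = 0.0501). Called pathway genes in the lens moved for the heparan sulfate list from 5 to 3 with total counts, 8 with DESeq2, 8 with every counted gene and 8 with the block, and for the feedback and ERK output list from 5 to 11 with every counted gene and 2 with at least 10 counts in every library. Scaling by total counts moved the median of all genes from 0.01 to 0.29 in the lens, so lens changes are relative to the TMM scaling. The share difference of FGFR3 in HLE-B3 cells was 6.21 percentage points, and 2.61 without length correction, an alternative chosen after seeing the data. Depth limits Etv4 and Spry4 in the lens, which had under 8 reads in each Ctrl library.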
